A study of Drosophila melanogaster with 3 samples.

Results

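General transcription factor genes and RNA polymerase subunit genes of Drosophila melanogaster were examined for binding of CG17385 at their promoters. They were chosen by symbol from the protein-coding genes of the Ensembl annotation: Tbp, the symbols that begin with Taf and a digit, TfII or Trf, and the symbols that begin with Polr1, Polr2 or Polr3. The rule found 61 of 13945 protein-coding genes and used no measured value. The genes comprised 15 TFIID genes (Tbp and TAFs), 10 other factor genes (the TfII symbols, Trf and Trf2), 30 polymerase subunit genes, 2 paralogs placed with the testis forms (Taf12L and TfIIA-S-2), and Trf4 and Trf5. Trf4 and Trf5 carry the names TBP-related factor 4 and 5 in RefSeq. The symbol rule also caught Trf4-1 and Trf4-2, poly(A) polymerases whose symbol comes from topoisomerase related function, and these 2 genes are described apart.

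The study profiled CG17385 by chromatin immunoprecipitation sequencing (ChIP-seq) in 3 biological replicates of 1 group. The group was strain CG17385-GFP, a transgenic line with a C-terminal GFP fusion of CG17385, collected as whole embryos of mixed sex at 0 to 24 h. No control group was among the samples, the embryos span the whole of embryonic development, and all tissues are mixed, so a peak cannot be placed in a stage or a cell type. One line of the sample labels describes an input control, against the antibody and assay given elsewhere in the same labels, and the values are read here as ChIP signal.

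In textbook terms, transcription by RNA polymerase II starts when TFIID, built from the TATA-binding protein Tbp and the TAFs, meets the core promoter. TFIIA and TFIIB join it, and TFIIF, TFIIE and TFIIH bring in and open the way for the polymerase. RNA polymerase I makes the large ribosomal RNAs and RNA polymerase III makes tRNAs and 5S rRNA, and several small subunits serve more than 1 of the 3 enzymes. These genes are used in nearly every cell. In the fly, some TAFs have testis paralogs that act in the male germ line.

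The authors' irreproducible discovery rate (IDR) list held 7588 peaks on dm6, and the pooled list and each replicate list held 30000 peaks. The pooled list is labelled as peaks and background for input to IDR, so a weak entry in it need not be binding. A promoter peak was a peak whose summit lay within 500 bp of any start site of the gene. The signal of a peak is the authors' own score on a scale that the sources used here do not state. It ran from 159.9 to 6471 in the IDR list, with a median of 294.0. The lists give no read counts, so the depth of the replicates is unknown and no counting interval was computed.

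An IDR promoter peak was present at 20 of the 61 genes, or 32.8%, against 3726 of 13884 other protein-coding genes, or 26.8%. Over all protein-coding genes 26.9% had one, so the share among the 61 genes was 5.95 percentage points above that of the other genes. In the replicate lists, counting the 7588 strongest peaks of each (called strong below), the share of the 61 genes was 31.1% for replicate 1, 26.2% for replicate 2 and 34.4% for replicate 3. The background over all protein-coding genes in the same lists was 27.9%, 25.2% and 28.3%. The difference from the other genes was 3.29, 1.06 and 6.14 points in the 3 replicates, or 3.50 ± 2.55 points (SD, n = 3). All 3 differences were above 0, but the smallest was close to 0, and the shares lay near the background. The direction depended on how peaks were counted. When a shared peak went only to the gene with the nearest start site, 12 of the 61 genes (19.7%) kept a count, against 21.1% of all protein-coding genes.

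The peaks of the strongest genes ranked high in each replicate. The pooled and IDR lists were made from these same replicates, so this is not an independent check. Of the 20 genes, 11 had a summit within 100 bp among the 7588 strongest peaks of every replicate, which is 18.0% of the 61 genes beside 19.2% of all protein-coding genes. A further 5 had one in 2 replicates and 4 in a single replicate. In the pooled list at any rank, 30 of the 61 genes (49.2%) had a promoter peak, against 47.6% of all protein-coding genes. The median signal of the 20 IDR promoter peaks was 328.2, and that of all 3746 genes with an IDR promoter peak was 381.7. Of the 20, 9 lay above the median of all such genes, and 3 (15%) lay above the 90th percentile of 1639.

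**Figure D1:**
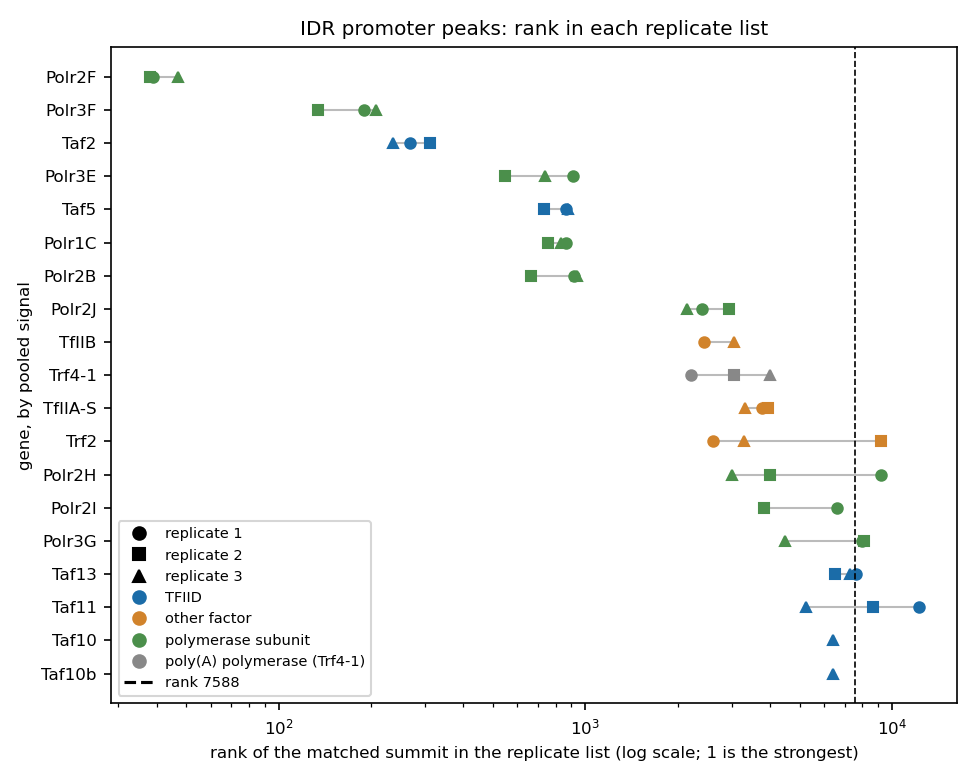
Rank of the matched summit in each replicate list (x axis, log scale, 1 is the strongest) for 19 of the 20 genes with an IDR promoter peak, ordered by pooled signal from top to bottom. Symbols are replicates, colours are classes and the dashed line is rank 7588. The 7 strongest genes rank within the first 1000 in all 3 replicates, and the symbols spread out or are missing toward the bottom.

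The strongest peak of the set was at Polr2F, which encodes a small subunit (Rpb6 in yeast) shared by all 3 nuclear polymerases. Its pooled signal was 3235, the 43rd highest of the pooled list. The matched summits had ranks 39, 38 and 47 and signals of 1032, 882.5 and 1345 in replicates 1, 2 and 3. The summit at chromosome 3R position 5371794 was 1 bp upstream of the only start site. No other protein-coding gene starts within 500 bp. The annotated ends of CG31542 and CG34277, which run on the same strand, lie just upstream at 5371744. The 30 bases around this start site, chr3R:5371779-5371808 on the plus strand, are shown because summit and start site coincide there, and the capital letter marks the annotated first base of the transcript.
Polr2F: gtgctgaaaaccgcatGcagcagtgtgaaa

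The largest signal among the TFIID genes was at Taf2, a large subunit that contacts DNA around the start site. Its pooled signal was 1840, with ranks of 268, 311 and 236 and signals of 581.1, 441.4 and 820.1 in replicates 1, 2 and 3. The summit was 6 bp upstream of the Taf2 start and 73 bp upstream of the start of CalpB, a calpain protease gene on the other strand. A further IDR peak of signal 508.5 lay 210 bp upstream of Taf2. The stretch chr3L:9888669-9888776, on the minus strand as Taf2 reads, is shown because it is the divergent intergenic DNA under the main summit. The capitals mark the only listed motif found in it, the Ohler 6 core GGTATTT.
Taf2: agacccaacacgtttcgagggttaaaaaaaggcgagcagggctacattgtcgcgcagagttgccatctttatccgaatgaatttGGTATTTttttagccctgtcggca

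Polr2B, the second largest subunit of RNA polymerase II, and Polr2J, the counterpart of yeast Rpb11, both had summits in the DNA between divergent genes. At Polr2B the summit lay 87 bp upstream of the start and 156 bp upstream of that of 140up. Its signal was 942.7, and its ranks were 917, 666 and 936 in replicates 1, 2 and 3. At Polr2J the summit lay 107 bp upstream, and 128 bp upstream of the start of CG15141. The signal of 442.9 was lower, with ranks of 2406, 2935 and 2146. The stretches chr3R:14125554-14125805 on the plus strand and chr2L:17410392-17410655 on the minus strand, each in the direction of the polymerase gene, are shown because they hold these summits at positions 151 and 143. Capitals mark GAGAG at Polr2B, and CGATA and TATAAA at Polr2J, on either strand. The GAGAG at Polr2B and the CGATA at Polr2J lie more than 100 bp from the summit, so the motif counts below leave them out. The GC contents of the stretches are 25.8% and 31.8%.
Polr2B: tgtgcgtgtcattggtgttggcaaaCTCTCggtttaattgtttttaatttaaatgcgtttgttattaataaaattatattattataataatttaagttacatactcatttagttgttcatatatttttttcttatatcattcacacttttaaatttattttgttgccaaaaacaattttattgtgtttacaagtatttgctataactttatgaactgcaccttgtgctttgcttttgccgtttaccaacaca
Polr2J: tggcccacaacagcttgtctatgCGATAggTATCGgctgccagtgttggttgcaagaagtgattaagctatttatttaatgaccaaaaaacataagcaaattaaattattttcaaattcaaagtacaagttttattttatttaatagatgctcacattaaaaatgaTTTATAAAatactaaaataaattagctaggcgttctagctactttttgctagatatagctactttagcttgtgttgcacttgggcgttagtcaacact

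Trf2, the TBP-related factor that serves promoters without a TATA box, differed in layout from the genes above. Its promoter peak sat at an internal start site, 99 bp upstream of it and inside an intron of the longer transcripts, with no other coding gene starting nearby. The signal was 299.5, and the ranks were 2606, 9214 and 3280 in replicates 1, 2 and 3, so the replicate 2 summit fell below the 7588 strongest. A further 4 IDR peaks lay in Trf2 introns beyond 500 bp of a start site, with signals of 674.0, 495.2, 476.4 and 268.8. Of these, 3 were stronger than the promoter peak. The stretch chrX:8421116-8421379 on the plus strand is shown for its run of GAGAG, in capitals.
Trf2: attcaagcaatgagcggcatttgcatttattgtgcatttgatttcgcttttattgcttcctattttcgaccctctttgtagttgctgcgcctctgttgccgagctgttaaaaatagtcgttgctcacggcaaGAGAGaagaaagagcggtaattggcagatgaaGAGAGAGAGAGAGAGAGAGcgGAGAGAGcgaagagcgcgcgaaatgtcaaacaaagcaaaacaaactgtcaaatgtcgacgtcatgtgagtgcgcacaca

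Among the polymerase subunit genes, 10 of 30 (33.3%) had an IDR promoter peak, against 26.9% of all protein-coding genes. By symbol these were 1 of 7 Polr1 genes, 5 of 13 Polr2 genes and 4 of 10 Polr3 genes. Among the subunits shared between enzymes, 3 of 7 had one (Polr2F, Polr1C and Polr2H), a grouping made after the values were seen. The median signal of the 10 peaks was 692.8. Of the 10, 7 were among the 7588 strongest in every replicate, which is 23.3% of the 30 genes beside 19.2% of all protein-coding genes.

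Polr3F, a subunit of the part of RNA polymerase III that helps to open promoter DNA, had the second strongest peak of the set. Its signal was 2090, with ranks of 190, 134 and 208 and signals of 649.9, 594.9 and 847.7 in replicates 1, 2 and 3. The summit lay 90 bp downstream of the start, in an intron, and 253 bp upstream of the start of the pyruvate kinase gene PyK. A second IDR peak, of signal 502.8, lay 114 bp upstream of the Polr3F start, with ranks of 3364, 4840 and 1538. Polr3E, a subunit of the same enzyme, had a signal of 1044 and ranks of 910, 546 and 739. Its summit was 256 bp upstream of its own start and 209 bp upstream of that of CG10584. A second IDR peak, of signal 238.5, lay only 47 bp upstream of the Polr3E start. It had ranks of 2312 and 1940 in replicates 1 and 2 and no matched summit in replicate 3. Polr1C, which is shared by RNA polymerases I and III, had a signal of 948.6 and ranks of 864, 754 and 832. Its summit lay 76 bp upstream of its own start and 7 bp downstream of that of Scox, a gene of cytochrome oxidase assembly. The strongest peaks of all 3 genes ranked in the first 1000 of each replicate, and each was shared with another coding gene.

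The peaks of Polr2H, Polr2I and Polr3G were weaker than these strongest peaks and less even across replicates. Polr2H, a shared subunit (Rpb8 in yeast), had a signal of 285.7 and ranks of 9177, 4011 and 3015 in replicates 1, 2 and 3. Its summit lay 177 bp upstream of its own start and 51 bp downstream of that of CG11247. Polr2I (Rpb9 in yeast) had a signal of 210.4, with ranks of 6612 and 3833 in replicates 1 and 2. Its summit lay 208 bp upstream, in the promoter shared with the insulator gene su(Hw). Replicate 3 had no summit within 100 bp of it, but had one of rank 8088 in the window, 105 bp upstream of Polr2I. Polr3G had a signal of 205.6 and ranks of 7963, 8081 and 4466, with its summit 131 bp upstream and no coding neighbour. None of these 3 stood among the 7588 strongest in every replicate.

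In the TFIID class 6 of 15 genes (40%) had an IDR promoter peak, against 26.9% of all protein-coding genes, but their median signal was 178.4. Of the 6, 2 genes, Taf2 and Taf5, had a strong summit in every replicate. That is 13.3% of the 15 genes, beside 19.2% of all protein-coding genes. Taf5, a scaffold subunit on chromosome arm 2R, had a signal of 950.9 and ranks of 867, 733 and 878 in replicates 1, 2 and 3. Its summit lay 159 bp upstream, and 142 bp upstream of the start of the peroxin gene Pex6. Taf13 and Taf11, which pair with each other through histone folds, had signals of 186.8 and 169.9, near the weakest IDR peak of 159.9. The ranks were 7648, 6520 and 7278 at Taf13 and 12192, 8681 and 5244 at Taf11. The summit at Taf11 fell on the start of the neighbouring gene und, 227 bp upstream of that of Taf11, and the Taf13 summit was nearer to nesd, 32 bp upstream of it.

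Taf10 and Taf10b, the 2 fly genes for TAF10, start 45 bp apart and shared a single peak of signal 165.8. Its summit lay 133 bp upstream of Taf10 and 88 bp downstream of the Taf10b start. A summit within 100 bp was found in replicate 3 alone, at rank 6424. Replicate 1 had a summit of rank 5497 elsewhere in the same window, and replicate 2 had one of rank 27937. Taf10 and Taf10b are thus 1 peak counted at 2 genes, and the strongest peaks of the 20 genes are 19 distinct peaks. With the second IDR peaks that 4 of the genes had in the window, there were 23.

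Among the other factors 3 of 10 genes (30%) had an IDR promoter peak, against 26.9% of all protein-coding genes. They were TfIIB, TfIIA-S and Trf2. TfIIB, the bridge between Tbp and the polymerase, had a signal of 399.6 and ranks of 2432 in replicate 1 and 3062 in replicate 3. Its summit lay 321 bp upstream, nearer to the start of Bug22. In replicate 2 no summit stood in the window, and the nearest was 10824 bp away. TfIIA-S, the small subunit of TFIIA, had a signal of 318.1 and ranks of 3772, 3947 and 3302, with signals of 97.3, 76.7 and 144.6. Its summit lay 33 bp upstream with no coding neighbour. It was the only gene of this class with a strong summit in every replicate.

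The classes overlapped across replicates. TFIID genes had a strong promoter summit in 33.3%, 20% and 46.7% of cases in replicates 1, 2 and 3, or 33.3 ± 13.3% (SD, n = 3). Other factors had one in 40%, 20% and 40%, or 33.3 ± 11.5%. Polymerase subunits had one in 30%, 33.3% and 30%, or 31.1 ± 1.92%. The difference of TFIID minus polymerase was 3.33, −13.3 and 16.7 points in the 3 replicates and so changed sign. TFIID minus other factors was −6.67, 0 and 6.67 points, and polymerase minus other factors was −10, 13.3 and −10 points. Each mean difference was smaller than its SD over replicates (2.22 ± 15, 0 ± 6.67 and −2.22 ± 13.5 points).

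**Figure D2:**
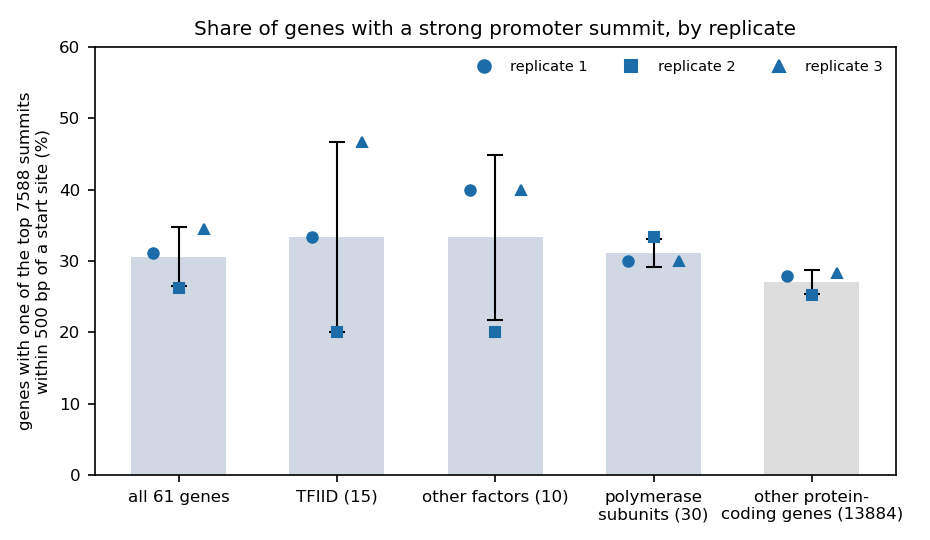
Percentage of genes with a summit among the 7588 strongest peaks of a replicate list within 500 bp of a start site (y axis), for the 61 genes, 3 of their classes and the other protein-coding genes. Points are replicates, bars are means and error bars are the SD (n = 3). The TFIID points run from 20% to 46.7% and the polymerase points from 30% to 33.3%.

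The paralogs had no IDR promoter peak. Taf12L, a testis TAF12 paralog, and TfIIA-S-2, a second gene of the TFIIA small subunit, had no pooled peak in the window either. The testis TAF genes can, nht, mia and sa, which the symbol rule does not reach, had no IDR promoter peak, which makes 0 of 6 with the 2 above. In the pooled list mia had a peak of signal 72.7, 151 bp upstream, and sa had one of signal 81.4, 479 bp upstream. Over so few genes a count of 0 shows no difference from the background of 26.9%. Trf4 and Trf5 had no pooled peak. Of the poly(A) polymerases, Trf4-1 had an IDR peak of signal 338.2 in its 5′ UTR, 136 bp downstream of the start, with ranks of 2203, 3054 and 4012 in replicates 1, 2 and 3. Trf4-2 had none.

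A promoter peak in the pooled list only was found at 10 of the 61 genes, against 2895 of the 13945 protein-coding genes. All 10 were below the weakest IDR signal. This is no separate finding, since the IDR peaks of the set held the same ranks in the pooled and IDR lists. The strongest of the 10 was Polr1D, a subunit shared by RNA polymerases I and III, with a signal of 130.1, 4 bp upstream. An IDR peak of signal 703.8 lay just outside the window in a Polr1D intron, 584 bp from the nearest start site. TfIIEalpha and TfIIEbeta, the subunits of TFIIE, had signals of 118.8 and 88.5, 96 and 84 bp upstream. Taf12, a histone-fold TAF, had 112.1 at 90 bp downstream, and Polr3C had 108.9 at 99 bp upstream. TfIIFalpha, Taf8, Tbp, Polr3D and Taf3 made up the rest, down to 46.9 at Taf3. The gene of the TATA-binding protein itself, Tbp, had a pooled peak of signal 60.4, 79 bp upstream. The authors' −log10 q-values for the 10 peaks ran from 2.46 at Polr1D down to 0.397 at Taf3, with 0.670 at Tbp.

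**Figure D3:**
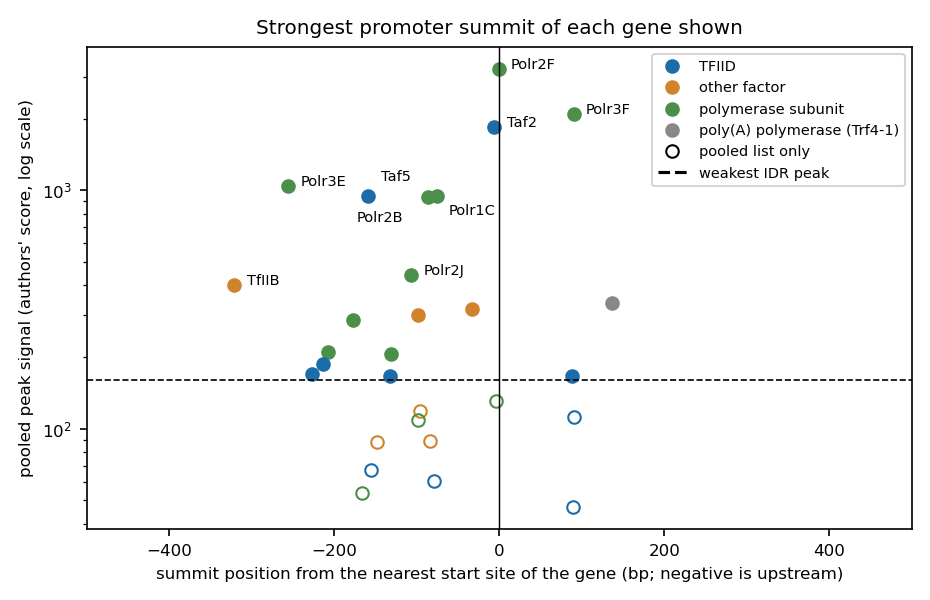
Position of the strongest summit relative to the nearest start site of the gene (x axis, bp, negative is upstream) against pooled signal (y axis, authors' score, log scale) for 29 of the 30 genes with a promoter peak in the pooled list. Filled points are in the IDR list, open points in the pooled list only, and the dashed line is the weakest IDR signal, 159.9. Most points lie upstream, and the strongest, Polr2F, lies 1 bp from the start site.

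The remaining 31 of the 61 genes had no pooled promoter peak, as did 7304 of the 13945 protein-coding genes. They were 17 polymerase genes (Polr1A, Polr1B, Polr1E, Polr1F, Polr1H, Polr2A, Polr2C, Polr2D, Polr2E, Polr2G, Polr2K, Polr2L, Polr2M, Polr3A, Polr3B, Polr3I and Polr3K), 5 TFIID genes (Taf1, Taf4, Taf6, Taf7 and Taf9), 4 other factors (TfIIA-L, TfIIFbeta, TfIIS and Trf), and Taf12L, TfIIA-S-2, Trf4, Trf5 and Trf4-2. The genes of the largest subunit of each polymerase, Polr1A, Polr2A and Polr3A, were all in this set, a grouping not planned beforehand. So were Polr1B and Polr3B, whereas Polr2B, the partner of Polr2A, was not. In the replicate lists Polr2A had summits of rank 8063 in replicate 1 and 10735 in replicate 3, 138 and 144 bp upstream. The nearest IDR summit to a start site was 6463 bp away for Polr2A, 77034 bp for Taf1, which encodes the largest TAF, and 752 bp for TfIIS, an elongation factor. Of the 31, 15 had no summit in the window in any list, and 16 had one in a replicate list. The same counts over all protein-coding genes were not made, so these carry no comparison.

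Taf4 and TfIIA-L, the large subunit of TFIIA, were listed as strong in 2 replicates but not in the pooled list. They were 2 of the 9 genes of the set that were strong in 2 replicates only (22.2%). Among all protein-coding genes 100 of 868 (11.5%) had no pooled promoter peak in this way. Taf4, a TAF at the core of TFIID, had a summit of rank 3158 and signal 111.6 in replicate 1 and one of rank 1763 and signal 233.4 in replicate 3, 119 and 116 bp upstream. TfIIA-L had ranks of 2462 and 2653 and signals of 134.8 and 173.8 in replicates 1 and 3, both 166 bp upstream. In replicate 2 the nearest summit was 1007 bp from Taf4 and 3179 bp from TfIIA-L. With TfIIB, 3 of the 17 genes with a strong summit in replicates 1 and 3 (17.6%) had none in replicate 2, against 210 of 3321 (6.32%) among all protein-coding genes. The converse cases were rarer in all protein-coding genes, at 0.799% missing from replicate 1 and 0.596% from replicate 3, and numbered 0 of 13 and 0 of 12 among the 61 genes. Whether this sets the lower share of TFIID genes and other factors in replicate 2 was not tested.

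Most of the peaks were at genes with a close coding neighbour. A start site of another protein-coding gene lay within 500 bp of a start site at 34 of the 61 genes (55.7%), against 30.9% of all protein-coding genes. Of genes with such a neighbour, 16 of 34 (47.1%) of the set and 1940 of 4309 (45.0%) of all protein-coding genes carried an IDR peak at the promoter. Of genes without one, 4 of 27 (14.8%) of the set and 1806 of 9636 (18.7%) of all genes did. The part of close neighbours in the share of the whole set was not tested. In the TFIID class 6 of the 9 genes with a neighbour had a peak and none of the 6 without. These 6 genes hold 5 distinct strongest peaks, since Taf10 and Taf10b are each other's neighbour. Among polymerase genes the counts were 8 of 19 with a neighbour and 2 of 11 without, and among other factors 1 of 4 and 2 of 6.

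**Figure D4:**
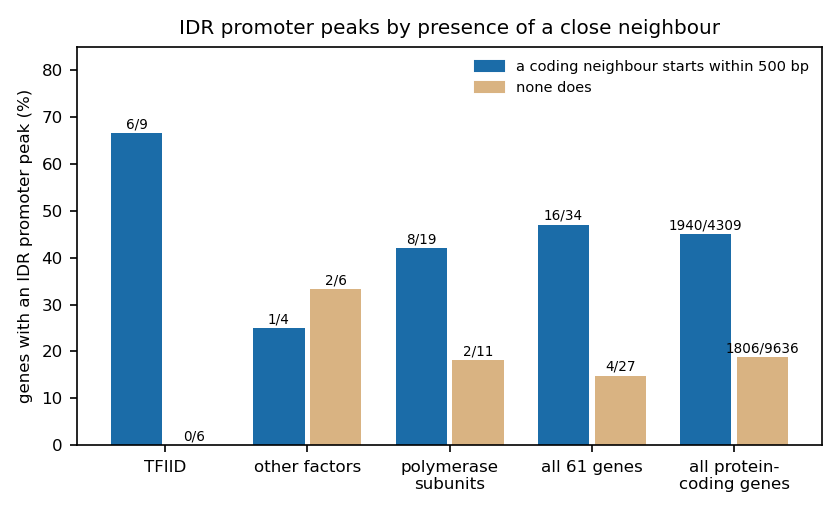
Percentage of genes with an IDR promoter peak (y axis), for genes with another protein-coding start site within 500 bp (blue) and genes with none (tan), in each class, in the 61 genes and in all protein-coding genes. The labels give peaks over genes. The 61 genes (47.1% and 14.8%) lie near all protein-coding genes (45.0% and 18.7%).

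Genes with a single start site were more frequent in the set than among all genes. A single annotated start site was present at 52 of the 61 genes (85.2%), against 73.5% of all protein-coding genes, and the median gene length was 1451 bp against 2166 bp. Among genes with 1 start site and a neighbour, 14 of 28 (50%) of the set had an IDR promoter peak, against 39.3% of all such genes. Among genes with 2 or more start sites and a neighbour the order was the other way, with 2 of 6 (33.3%) of the set and 56.8% of all such genes. Without a neighbour, 3 of 24 (12.5%) of the set with 1 start site had one, against 12.9% of all such genes, and 1 of 3 (33.3%) with 2 or more, against 37.5%. By construction, a gene with several start sites has more windows in which a summit counts.

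The place of the summits was like that of other promoter peaks. Of the 20 genes, 17 (85%) had the summit upstream of the start site, against 75% of all genes with an IDR promoter peak. The median distance was 132 bp against 141 bp, and 3 summits (15%) lay within 50 bp, against 21.4%. Of the 20 genes, 15 (75%) shared the peak with another coding start site, against 49.4% of all genes with an IDR promoter peak. In 9 of these 15 (60%) the partner's start was nearer to the summit than that of the factor or polymerase gene, against 48.5% of all genes with a shared peak, so the peak alone does not assign the binding to either gene.

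Short motifs were counted on both strands in the 100 bp on either side of the summit, in the 19 distinct strongest peaks of the set and in the 2831 distinct strongest peaks of all protein-coding genes. The DNA replication-related element TATCGATA was found in 0 of the 19, against 5.69% of the 2831. Ohler 1 GGTCACACT and CACGTG were also in 0, against 2.72% and 3.07%. TATAAA was in 7 (36.8%), against 31.2%, and CGATA, which is contained in TATCGATA, was in 7 (36.8%), against 33.5%. GAGAG was in 4 (21.1%), against 27.5%, and CAGCTG in 2 (10.5%), against 13.8%. Ohler 6 GGTATTT and Ohler 7 CATCNCTA were in 1 peak each (5.26%), against 6.82% and 4.98%. With 19 peaks, 1 peak is 5.26 percentage points, which is as large as most of these differences. Over all 3481 IDR promoter peaks, second peaks of a gene included, no motif's share differed by more than 1.58 points from that over the 2831. The median GC content of these windows was 35.3% in the 19 peaks, against 37.8% in the 2831.

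Genes that work with these factors under other symbols were taken from lists, of which 47 of 54 symbols were matched in the annotation and 21 (44.7%) had an IDR promoter peak, beside 26.9% of all protein-coding genes. This difference was not tested, and each list holds few genes. In TFIIH, the helicase and kinase complex of initiation, 4 of 10 genes had one, with signals of 3172 at Ssl1, 356.8 at Xpd, 217.6 at Tfb1 and 195.3 at Tfb5. Of the Tbp regulators 2 of 3 had one, with 2651 at NC2alpha and 730.2 at Hel89B, the latter 475 bp downstream of the start. In a mixed list of RNA polymerase III factors and snRNA activators 3 of 7 had one, with 2583 at Brf, 1229 at Bdp1 and 709.3 at Pbp49. This list also counts Maf1 and l(3)mbn, which are not initiation factors by their listing and had none. Of the elongation factors 5 of 10 matched genes had one, with 1767 at TH1, 1673 at Spt6, 1174 at Nelf-E and 300.5 at CycT. In SAGA, a coactivator that shares TAFs with TFIID, 7 of 13 matched genes had one, with 1163 at Ada2b, 894.9 at Gcn5, 635.0 at wda and 341.7 at e(y)2. The Ada2b summit lay 499 bp downstream of the start, at the edge of the window. Xpd, Tfb5 and e(y)2 had no matched summit in replicate 2. In the order above, 20%, 66.7%, 42.9%, 40% and 38.5% of the lists had a strong summit in every replicate, against 19.2% of all genes. A close coding neighbour was present at 70%, 100%, 42.9%, 70% and 53.8%, against 30.9% of all protein-coding genes. The part of these neighbours in the shares was not tested. TAF symbols e(y)1 and bip2 were not matched, and the annotation carries these genes as Taf9 and Taf3.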

How the data were processed

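Binding of CG17385 was measured by ChIP-seq in 3 replicates. The signal of each peak is the score the authors deposited in their peak lists, on a scale not given in the sources used here, and beside it the authors deposited a −log10 q-value per peak. Per the deposited descriptions, the replicate lists share 1 control file, the pooled list comes from the 3 alignments, and the IDR list from both. The build is dm6 per the labels, with aligner, caller and IDR threshold not given in the sources used here. Start sites came from Ensembl release 115 on chromosomes X, 2L, 2R, 3L, 3R and 4, and sequence from the RefSeq copy of Release 6, in which all 61 genes had identical coordinates.

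Computed here, with Python 3.11.15, pandas 2.3.3 and numpy 2.4.6, were the strongest summit within 500 bp of any start site, its place and its match within 100 bp in each replicate. The top N is the 7588 strongest peaks. The look-up was tested on simulated peaks. Shares are described beside all protein-coding genes, with no test, because there is 1 group and genes are not replicates. The labels call the samples biological replicates and do not say whether their collections were separate. The genes and lists were chosen with earlier results of these data known. The rule for naming genes takes every gene with an IDR promoter peak, the 5 strongest in the pooled list only, those without by name, partners at a shared peak and up to 4 of each further list. Tbp and the others of the pooled-only set were named after their values were seen. Printed sequences leave out annotated exons except 15 bases at each end, and none from chromosome arm 2R is shown. The values of 1 polymerase gene are included in the counts but not reported here. Alternatives changed the window, list, matching and replicates.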

Additional observations from a re-analysis of the deposited data

How the results depend on the processing

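Over the 61 genes the count of IDR promoter peaks was 12 in the stronger 50% of the IDR list, 11 with a strong summit in every replicate and 12 when a shared peak went to the nearest start site, and 13, 13 and 12 without replicates 1, 2 and 3 when a strong summit was asked for in both others, which the IDR list itself does not ask. As shares these were 19.7%, 18.0% and 19.7% under the first 3 settings and 21.3%, 21.3% and 19.7% without each replicate, against 16.9%, 19.2%, 21.1%, 21.2%, 21.7% and 20.1% of all protein-coding genes. The 61 genes fell further than all genes, and their share ended below that of all genes with a strong summit in every replicate, with the nearest start site and without replicate 2 or 3. TFIID counts were 2, 2 and 2 under the same 3 settings, 10 in the whole pooled list and 3, 2 and 2 without replicates 1, 2 and 3. Other factors numbered 3, 1 and 2 under these 3 settings, and 1, 3 and 1 without replicates 1, 2 and 3. Polymerase genes numbered 6, 7 and 7 of 30 under these 3 settings, and 8, 7 and 8 without replicates 1, 2 and 3. The 7 with a strong summit in every replicate were 23.3%, against 19.2% of all protein-coding genes. In the whole pooled list the counts were 10 TFIID genes (66.7%), 6 other factors (60%), 13 polymerase genes (43.3%) and 2 of 6 testis paralogs (33.3%). Of all protein-coding genes 47.6% had a promoter peak in that list. The mean share of the 61 genes with a strong summit was 20.8% when the list length was cut by 50%. Windows of 250 and 1000 bp gave 19 and 22 genes, or 31.1% and 36.1%, against 21.6% and 31.0% of all protein-coding genes. Alternatives added after seeing the data (no poly(A) polymerases, or Trf4 and Trf5 among the other factors) gave 19 of 59 and 3 of 12 genes. At 4 of the 6 TFIID genes the signal lay between 165.8 and 186.8, close to the IDR minimum of 159.9, and the unknown depth limits what the absence of a peak shows.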
